A study of Mus musculus with 12 samples.

Results

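Liver transcripts of 35 genes of the unfolded protein response and the heat shock response were described in mice that lacked Hdac6 and in wild-type mice, with and without dexamethasone. The genes were named as a set: 14 chaperones and folding enzymes of the endoplasmic reticulum (ER), 3 genes of ER-associated degradation, 2 transducers of ER stress, 5 genes of the Atf4 branch, 9 genes of the cytosolic heat shock response and 2 mitochondrial chaperonin genes. Each gene was read from a probe set annotated to its symbol alone, the one with the highest mean where there were several. This gave values for 33 of the 35 members, among 19937 genes in the series, and all 33 passed the filter on low values that left 17904 genes to test. Hspa1b had no probe set of its own, because its probe set is annotated to both Hspa1a and Hspa1b. Hsf1, the main heat shock transcription factor, was not analysed here.

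RNA came from the livers of 12 male C57Bl/6 mice, 1 mouse per Affymetrix whole-transcript array. Of 6 mice of genotype HDAC6 Y/-, 3 received dexamethasone, a synthetic glucocorticoid, at 1 mg/kg by intraperitoneal injection over a period of 3 weeks, and 3 received vehicle. Of 6 wild-type mice, 3 received dexamethasone and 3 vehicle in the same way. Hdac6 is X-linked, so HDAC6 Y/- males carry no other copy, and the labels describe no cell type restriction. The animals' age, the way the allele was made and the hour of tissue collection are not given in the sources used here. Deposited values are log2 intensities, so that a difference of 1 is a doubling, and they are set against each other only within a probe set.

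The ER folds secreted and membrane proteins, of which hepatocytes make large amounts. When unfolded proteins build up there, the sensors Ire1 (gene Ern1), Perk (Eif2ak3) and Atf6 start the unfolded protein response: spliced Xbp1 and cleaved Atf6 raise chaperones and degradation genes, and Perk raises translation of Atf4, whose targets include amino acid synthesis genes and Ddit3. In the cytosol, heat shock factors raise Hsp70, Hsp40 and their partners through heat shock elements. Hdac6 is a largely cytoplasmic deacetylase that binds ubiquitin and is known to act on the chaperone Hsp90.

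Hdac6 read 3.62 to 4.40 in the 6 knockout arrays and 5.86 to 6.43 in the 6 wild-type arrays. Hepatocyte markers were present at like levels throughout, with summed linear intensities of 57509 to 61455 over 10 markers. Exocrine pancreas RNA was seen in 4 arrays, set apart by a Cpa1 value above 6: knockout vehicle 3, wild-type dexamethasone 3, and wild-type vehicle 1 and 2. The lowest Cpa1 value among these 4 was 9.44 and the highest among the other 8 was 4.09. All but 1 of the 20 measured pancreas markers, Ctrc, separated the same arrays. Cpa1 is among the 20, and its separation was fixed by the cut. The summed linear intensity of the 20 ran from 174 to 224 in knockout dexamethasone livers and from 177 to 8742 in knockout vehicle livers. It ran from 185 to 5058 in wild-type dexamethasone livers and from 186 to 19937 in wild-type vehicle livers. Counts of members called with dexamethasone, and the changes of some members, are also given without these arrays below. Genotype differences and interactions of single genes are given with all arrays only.

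Dexamethasone changed a minority of the members, most of them upwards, while Hspa5, Hsp90b1, Calr and Canx, abundant chaperones of the ER, passed in no comparison. In the knockout, 4 of 33 members were higher after dexamethasone and 0 were lower at an adjusted p under 0.05, which is 12.1% of the members against 8.29% of all genes tested (4.38% higher and 3.92% lower). In wild type, 6 were higher and 2 lower, which is 24.2% of the members against 11.5% of all genes (4.57% higher and 6.95% lower). With the effect averaged over both genotypes, 9 were higher and 2 lower, 33.3% of the members against 17.2% of all genes (7.29% higher and 9.94% lower). The members were chosen with earlier results of these data known, so these shares describe the set and are not a test of it. Herpud1, Dnajb9 and Dnaja1 passed in both genotypes, Creld2 passed in the knockout, Asns, Atf6, Chac1, Pdia4 and Trib3 passed in wild type, and Dnajc3 and Hspa1a passed in the average alone. The other 22 members passed in no comparison. These calls come from limma's moderated test on all 12 arrays, adjusted by the Benjamini-Hochberg method over 17904 genes. In a fit over all probe sets, with or without a symbol, which was chosen after seeing the data, Creld2 missed the threshold in the knockout (adjusted p = 0.0547), as did Chac1 (0.0946), Pdia4 (0.0862) and Trib3 (0.0984) in wild type. Groups could lie apart without a call. The knockout dexamethasone arrays lay wholly above the knockout vehicle arrays for 11 of 33 members and wholly below for 0, against 11.7% and 12.6% of all genes. In wild type the arrays lay wholly above for 7 members and wholly below for 2, against 12.5% and 14.5% of all genes.

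**Figure D1:**
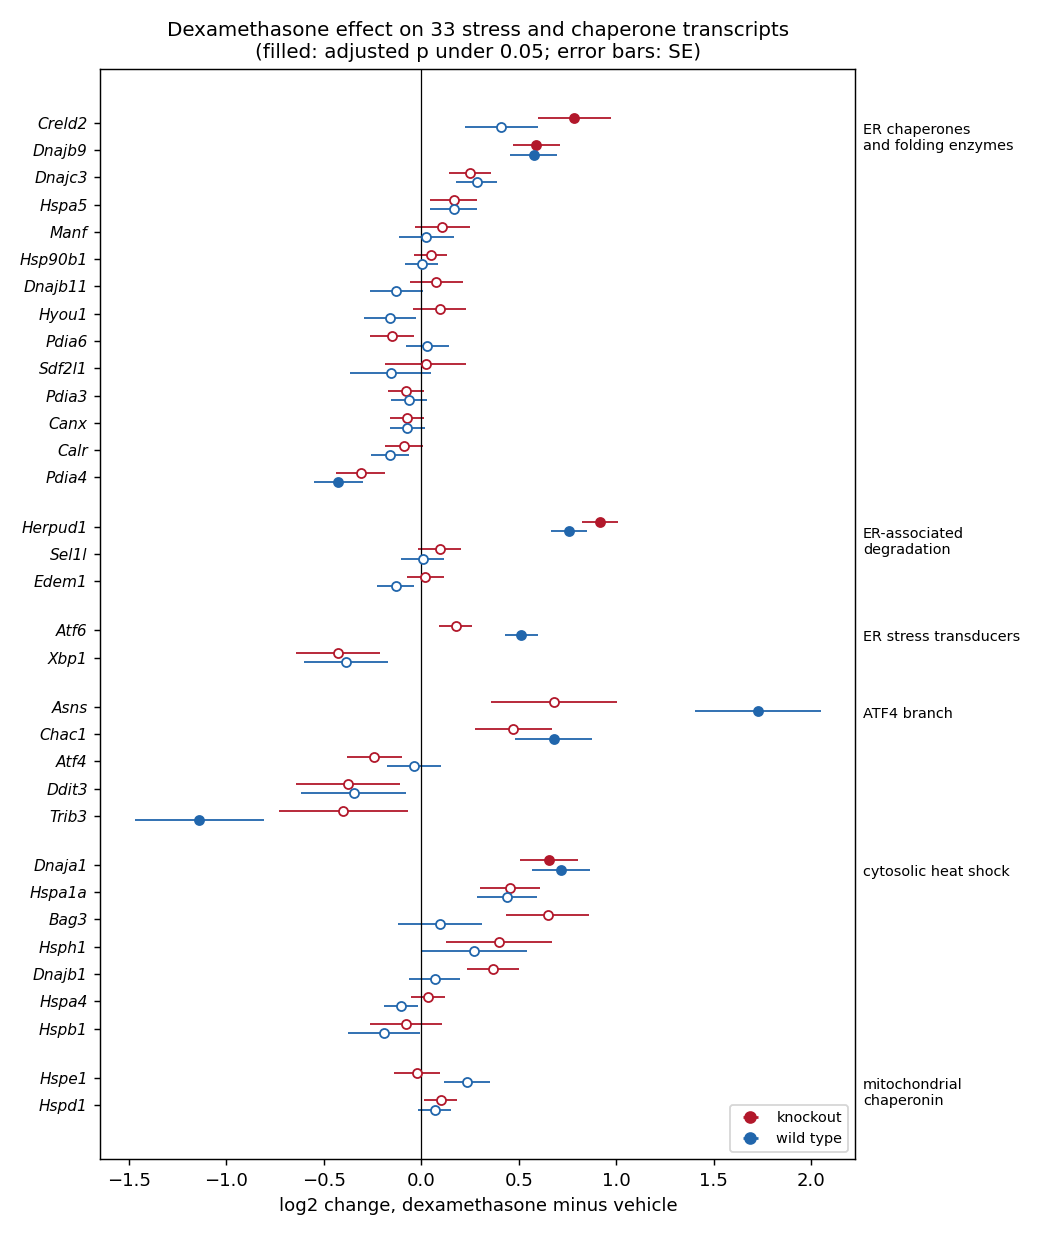
Log2 change with dexamethasone (horizontal axis, dexamethasone minus vehicle) of 33 members, grouped by role, in knockout (red) and wild-type (blue) livers; bars are SE and filled points have an adjusted p under 0.05. Herpud1, Dnajb9 and Dnaja1 are filled in both genotypes, and Asns at 1.73 and Trib3 at -1.14 in wild type lie farthest from 0.

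Herpud1 had the smallest adjusted p of all members in each genotype. It encodes a ubiquitin-like protein of the ER membrane that takes part in ER-associated degradation and is a known target of the unfolded protein response. Its log2 intensity was 11.58, 11.66 and 11.58 in knockout dexamethasone livers, against 10.79, 10.53 and 10.75 in knockout vehicle livers. The wild-type values were 11.50, 11.63 and 11.66 in wild-type dexamethasone livers, against 10.76, 10.92 and 10.84 in wild-type vehicle livers. Each dexamethasone array lay above each vehicle array in both genotypes, and the treated groups of both genotypes overlapped. The change was 0.92 ± 0.09 in the knockout, 1.89-fold (adjusted p = 3.25e-05, limma), and 0.76 ± 0.09 in wild type, 1.69-fold (adjusted p = 0.000158). The other degradation genes did not follow: Sel1l, an adaptor of the Hrd1 ubiquitin ligase, changed by 0.09 ± 0.11 in the knockout and 0.01 ± 0.11 in wild type, and Edem1, a lectin that marks misfolded glycoproteins, by 0.02 ± 0.09 in the knockout and -0.13 ± 0.09 in wild type. Neither passed the test. Herpud1 is shown with the 250 bases before its start at chr8:94386179-94386428 (+ strand, RefSeq, GRCm38.p6), because it was the one member whose window held ER stress response element II, that is ATTGG and CCACG with 1 base between, on either strand. That element, at positions -52 to -42, is in capitals with 2 matches to TGANGNAA, the core of the amino acid response element, at -130 to -123 and, on the other strand, at -112 to -105:
Herpud1: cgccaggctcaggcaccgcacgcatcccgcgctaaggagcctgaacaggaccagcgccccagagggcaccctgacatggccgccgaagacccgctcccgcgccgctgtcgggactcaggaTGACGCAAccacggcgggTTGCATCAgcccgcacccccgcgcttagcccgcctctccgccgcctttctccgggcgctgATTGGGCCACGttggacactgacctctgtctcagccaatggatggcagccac
Among 32851 promoter windows of this length in RefSeq's table, 0.0304% held the first motif and 14.1% the second. A match describes letters and not binding.

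Among the ER chaperones and folding enzymes, 2 of 14 were higher in the knockout and 1 was higher and 1 lower in wild type. That is 14.3% in each genotype, against 8.29% of all genes in the knockout and 11.5% in wild type. Dnajb9 (ERdj4), an Hsp40 partner of the ER Hsp70, was higher in both. It read 9.26, 9.19 and 9.34 in knockout dexamethasone livers, against 8.52, 8.84 and 8.66 in knockout vehicle livers. Wild-type Dnajb9 was 9.06, 8.95 and 8.95 in wild-type dexamethasone livers, against 8.26, 8.28 and 8.68 in wild-type vehicle livers. No treated array overlapped a vehicle array of its genotype, and the changes were 0.59 ± 0.12 in the knockout (adjusted p = 0.00745, limma) and 0.58 ± 0.12 in wild type (adjusted p = 0.00687). Creld2, an ER stress-inducible protein with disulphide isomerase-like activity, read 6.81, 7.43 and 7.47 in knockout dexamethasone livers, against 6.45, 6.62 and 6.28 in knockout vehicle livers. Its wild-type values were 7.14, 6.73 and 6.95 in wild-type dexamethasone livers, against 6.52, 6.83 and 6.24 in wild-type vehicle livers. The groups were apart in the knockout and overlapped in wild type through vehicle array 2. Creld2 changed by 0.78 ± 0.19 in the knockout (adjusted p = 0.0186), and by 0.41 ± 0.19 in wild type, where it missed the threshold (adjusted p = 0.203); the difference between those changes was 0.38 ± 0.26 (adjusted p = 0.87). Leaving out knockout vehicle 1 or 3, or knockout dexamethasone 2 or 3, ended the knockout call (0.67 to 0.78).

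Dnajc3 (p58IPK), an ER co-chaperone also known as an inhibitor of Perk, read 10.44, 10.52 and 10.51 in knockout dexamethasone livers, against 10.26, 10.19 and 10.28 in knockout vehicle livers. In wild-type livers it was 10.57, 10.35 and 10.25 in wild-type dexamethasone livers, against 10.30, 9.97 and 10.05 in wild-type vehicle livers. The knockout groups did not overlap and the wild-type groups did. Its change passed when averaged over genotypes (0.27 ± 0.07, adjusted p = 0.0245, limma) and in neither genotype alone (0.25 in the knockout, 0.28 in wild type). That call was lost in 6 of the 12 omissions of a single array (0.22 to 0.26). Pdia4, a protein disulphide isomerase, moved the other way. It was 9.56, 9.74 and 9.31 in knockout dexamethasone livers, against 9.99, 9.70 and 9.86 in knockout vehicle livers, and in wild type 9.47, 9.25 and 9.18 in wild-type dexamethasone livers, against 9.75, 9.81 and 9.62 in wild-type vehicle livers. All wild-type dexamethasone values lay below all wild-type vehicle values, while the knockout groups overlapped through dexamethasone array 2. The change was -0.31 ± 0.12 in the knockout (adjusted p = 0.18) and -0.42 ± 0.12 in wild type (adjusted p = 0.0421), 1.34-fold lower. The other probe set of Pdia4 gave -0.41 in the knockout and -0.32 in wild type, and neither passed. The wild-type call of Pdia4 was lost in 6 of the 12 single omissions (-0.42 to -0.36).

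Hspa5 (BiP), the ER Hsp70 that is the usual gauge of ER stress, did not pass. It read 10.63, 10.65 and 10.95 in knockout dexamethasone livers, against 10.59, 10.54 and 10.59 in knockout vehicle livers. The wild-type readings were 10.93, 10.65 and 10.50 in wild-type dexamethasone livers, against 10.53, 10.65 and 10.40 in wild-type vehicle livers. The knockout groups were apart by a narrow margin and the wild-type groups overlapped, with wild-type dexamethasone 1 and knockout dexamethasone 3 as the highest arrays. Averaged over genotypes its change was 0.17 ± 0.09, with a 95% confidence interval of -0.02 to 0.35 (adjusted p = 0.239). The other 9 members of this list passed in no comparison, and their averaged changes are given here. They were Hsp90b1 (Grp94), the ER Hsp90, at 0.02 ± 0.06, Hyou1, an exchange factor of the ER Hsp70, at -0.03 ± 0.10, Dnajb11 (ERdj3) at -0.02 ± 0.10, the disulphide isomerases Pdia3 at -0.07 ± 0.07 and Pdia6 at -0.06 ± 0.08, and the glycoprotein chaperones calreticulin (Calr) at -0.12 ± 0.07 and calnexin (Canx) at -0.07 ± 0.06. Sdf2l1, an ER-resident partner of Dnajb11, was at -0.07 ± 0.15 and Manf, a protein secreted under ER stress, at 0.07 ± 0.10. With Hspa5, these 10 members had 95% intervals that ran from -0.38 to 0.35 for the averaged effect.

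Promoter windows of 250 bases were listed for 31 of the 35 members, 36 windows in all. The ER stress response element, CCAAT and CCACG with 9 bases between, searched on both strands, was in 7 of 16 ER windows (43.8%), those of Calr, Canx, Creld2, Dnajc3, Hsp90b1, Hspa5 and Pdia6. It was in 0 of 5 windows of the Atf4 branch, in 0 of 12 windows of the cytosolic genes and in 0.113% of all 32851 windows. Of the 7 carriers, Creld2 was called in the knockout and, with Dnajc3, in the average, while the other 5 passed in no comparison. CCAAT alone, which is contained in the element, was in 15 of the 16 ER windows and in 33.8% of all windows. The window of a carrier that was called and that of the one best known as an ER stress gauge are shown, Creld2 at chr15:88819396-88819645 and Hspa5 at chr2:34771840-34772089 (both + strand, RefSeq, GRCm38.p6). The element is in capitals, at -126 to -108 on the other strand in Creld2 and at -65 to -47 in Hspa5:
Creld2: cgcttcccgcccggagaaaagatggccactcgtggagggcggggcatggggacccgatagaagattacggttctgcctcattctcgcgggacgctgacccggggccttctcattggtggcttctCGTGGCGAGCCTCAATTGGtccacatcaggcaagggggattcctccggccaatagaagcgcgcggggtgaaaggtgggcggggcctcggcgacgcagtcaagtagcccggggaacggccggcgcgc
Hspa5: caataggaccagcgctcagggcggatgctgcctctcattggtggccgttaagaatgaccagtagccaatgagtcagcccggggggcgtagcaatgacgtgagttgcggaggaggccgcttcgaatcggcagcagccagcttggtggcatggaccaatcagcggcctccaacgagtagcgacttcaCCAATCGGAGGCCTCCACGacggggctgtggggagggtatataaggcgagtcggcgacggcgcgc
The unfolded protein response element TGACGTGG and the paired half-sites ACANNNTGT, a loose form of the glucocorticoid response element, were in 0 member windows, against 0.563% and 5.84% of all windows. These windows are short, and nothing outside them was searched.

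Of the 2 transducers, Atf6 was higher and Xbp1 did not pass. Atf6 encodes a membrane-bound transcription factor that is cut on ER stress. Its log2 intensity was 8.13, 8.10 and 8.11 in knockout dexamethasone livers, against 7.93, 7.94 and 7.94 in knockout vehicle livers. Wild-type livers gave 8.25, 8.13 and 8.11 in wild-type dexamethasone livers, against 7.66, 7.53 and 7.77 in wild-type vehicle livers. The treated groups of both genotypes overlapped, the knockout vehicle arrays sat just under them, and the wild-type vehicle arrays were the lowest. Atf6 changed by 0.51 ± 0.08 in wild type (adjusted p = 0.00154, limma) and by 0.18 ± 0.08 in the knockout (adjusted p = 0.293). Xbp1, whose messenger RNA is spliced by Ire1, read 9.53, 9.12 and 9.46 in knockout dexamethasone livers, against 9.31, 9.92 and 10.16 in knockout vehicle livers. Wild-type Xbp1 was 9.44, 9.29 and 8.72 in wild-type dexamethasone livers, against 9.60, 9.62 and 9.38 in wild-type vehicle livers. Its groups overlapped in both genotypes, and the averaged change of -0.41 ± 0.15 missed the threshold (adjusted p = 0.0918). Spliced and unspliced Xbp1 were not separated here.

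In the Atf4 branch, 0 of 5 members passed in the knockout, against 8.29% of all genes. In wild type 2 were higher and 1 lower (60.0%, against 11.5% of all genes), and 0 of 5 passed for the interaction. Asns, asparagine synthetase, was 7.35, 6.73 and 6.42 in knockout dexamethasone livers, against 6.10, 6.20 and 6.16 in knockout vehicle livers. Its wild-type values were 7.10, 7.03 and 5.96 in wild-type dexamethasone livers, against 5.62, 4.79 and 4.50 in wild-type vehicle livers. All dexamethasone arrays lay above the vehicle arrays of their genotype, and the wild-type vehicle arrays were below all others. Asns changed by 1.73 ± 0.32 in wild type, 3.31-fold (adjusted p = 0.00363, limma), and by 0.68 ± 0.32 in the knockout (adjusted p = 0.291). Chac1, which breaks down glutathione, was 5.68, 5.80 and 5.47 in knockout dexamethasone livers, against 4.86, 5.63 and 5.04 in knockout vehicle livers. Wild-type Chac1 was 5.92, 5.99 and 5.53 in wild-type dexamethasone livers, against 5.45, 5.05 and 4.90 in wild-type vehicle livers. The wild-type groups were apart and the knockout groups overlapped through vehicle array 2. Its change was 0.68 ± 0.20 in wild type (adjusted p = 0.0413) and 0.47 ± 0.20 in the knockout (adjusted p = 0.206). The wild-type call of Chac1 was lost in 7 of the 12 single omissions (0.56 to 0.68).

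Trib3, a pseudokinase and Atf4 target that dampens stress signalling, went down where Asns and Chac1 went up. It read 5.61, 5.27 and 4.21 in knockout dexamethasone livers, against 6.05, 5.08 and 5.16 in knockout vehicle livers. Wild-type livers read 4.74, 5.07 and 4.99 in wild-type dexamethasone livers, against 6.07, 5.65 and 6.50 in wild-type vehicle livers. In wild type all treated arrays lay under all vehicle arrays, and in the knockout the groups overlapped, with dexamethasone array 3 the lowest of the 12. The change was -1.14 ± 0.33 in wild type, 2.20-fold lower (adjusted p = 0.041, limma), and -0.40 ± 0.33 in the knockout (adjusted p = 0.628). Its wild-type call was lost in 7 of the 12 single omissions (-1.21 to -0.93). Atf4 itself read 7.17, 6.79 and 7.02 in knockout dexamethasone livers, against 7.05, 7.42 and 7.23 in knockout vehicle livers. Wild-type Atf4 was 7.14, 7.08 and 7.19 in wild-type dexamethasone livers, against 7.28, 7.35 and 6.88 in wild-type vehicle livers. Groups overlapped in both genotypes, with an averaged change of -0.14 ± 0.10. Atf4 is largely controlled at translation, which arrays do not measure. Ddit3 (CHOP), a pro-apoptotic transcription factor, was 3.73, 3.42 and 4.16 in knockout dexamethasone livers, against 4.45, 4.41 and 3.57 in knockout vehicle livers. Its wild-type values were 4.16, 3.41 and 3.21 in wild-type dexamethasone livers, against 4.11, 3.90 and 3.81 in wild-type vehicle livers. These groups overlapped as well, and the averaged change was -0.36 ± 0.19 (adjusted p = 0.248). Asns and Chac1 were the members of the branch whose windows held TGANGNAA, and they are shown at chr6:7693210-7693459 (- strand, RefSeq, GRCm38.p6) and chr2:119350992-119351241 (+ strand), with the core in capitals, on the other strand in the match of Chac1 nearer its start:
Asns: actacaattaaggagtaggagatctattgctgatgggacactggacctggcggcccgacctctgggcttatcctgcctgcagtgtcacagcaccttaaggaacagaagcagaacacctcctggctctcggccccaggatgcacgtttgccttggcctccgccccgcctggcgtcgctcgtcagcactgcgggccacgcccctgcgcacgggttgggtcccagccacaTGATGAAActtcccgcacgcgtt
Chac1: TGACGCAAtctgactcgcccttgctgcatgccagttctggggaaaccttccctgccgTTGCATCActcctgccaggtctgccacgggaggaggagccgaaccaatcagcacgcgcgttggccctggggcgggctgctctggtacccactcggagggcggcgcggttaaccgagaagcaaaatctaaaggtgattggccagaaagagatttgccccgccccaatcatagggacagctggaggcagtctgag
The core was in 14.1% of all windows and, outside this branch, in member windows of Dnajb9, Herpud1 and Hspb1. The fuller form TGATGNAAT was in 0 member windows and in 0.816% of all windows. The core and the paired heat shock elements below were added after the stricter forms had matched few member windows.

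In the cytosolic heat shock list, 7 of 9 members had a value of their own, and Dnaja1 was the one that passed in each genotype. Dnaja1 is an Hsp40 co-chaperone of cytosolic Hsp70. It read 9.65, 9.81 and 10.31 in knockout dexamethasone livers, against 9.38, 9.32 and 9.11 in knockout vehicle livers. In wild type it was 10.08, 9.77 and 10.00 in wild-type dexamethasone livers, against 9.17, 9.26 and 9.28 in wild-type vehicle livers. Treated and vehicle arrays did not overlap in either genotype, and knockout dexamethasone 3 was the highest array. Dnaja1 changed by 0.66 ± 0.15 in the knockout (adjusted p = 0.0143, limma) and by 0.71 ± 0.15 in wild type (adjusted p = 0.00675). Without knockout vehicle 3 the knockout change was 0.58 and the call was lost. Its probe sets disagreed: another gave 0.66 in the knockout, which did not pass (adjusted p = 0.0798, limma), and 1.07 in wild type, which did (adjusted p = 0.00534), and one annotated to a microRNA as well gave -0.02 in the knockout and 0.24 in wild type.

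Hspa1a, the inducible Hsp70, lay low on these arrays, whose medians were 3.13 to 3.24. It read 3.89, 4.11 and 4.09 in knockout dexamethasone livers, against 3.35, 3.75 and 3.62 in knockout vehicle livers. The wild-type readings were 3.99, 3.87 and 3.86 in wild-type dexamethasone livers, against 3.39, 3.17 and 3.84 in wild-type vehicle livers. Treated arrays lay above vehicle arrays in both genotypes, by little in wild type, where vehicle array 3 came close. The change passed in the average (0.45 ± 0.11, adjusted p = 0.0105, limma) and in neither genotype alone, at 0.45 ± 0.15 in the knockout (adjusted p = 0.0974) and 0.44 ± 0.15 in wild type (adjusted p = 0.0867). The probe set shared with Hspa1b read 6.57, 6.38 and 6.93 in knockout dexamethasone livers, against 5.76, 6.33 and 5.74 in knockout vehicle livers. In wild type it read 6.51, 6.32 and 6.17 in wild-type dexamethasone livers, against 5.45, 5.83 and 5.98 in wild-type vehicle livers. Its treated and vehicle arrays did not overlap in either genotype. It changed by 0.68 in the knockout and 0.58 in wild type, and by 0.63 in the average (adjusted p = 0.0149 in a fit over all probe sets). Hspa1a and Hspa1b are near-identical copies that lie close together on chromosome 17, so their values are uncertain as to the copy. Their promoter windows were identical at 247 of 250 bases. The window of Hspa1a, at chr17:34972157-34972406 (- strand, RefSeq, GRCm38.p6), is shown with its paired heat shock element GAANNTTC in capitals, at -104 to -97:
Hspa1a: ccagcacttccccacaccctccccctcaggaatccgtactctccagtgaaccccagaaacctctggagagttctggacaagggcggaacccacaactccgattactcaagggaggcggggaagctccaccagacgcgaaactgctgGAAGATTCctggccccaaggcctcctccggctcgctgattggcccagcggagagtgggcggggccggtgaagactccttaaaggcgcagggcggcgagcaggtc
That pair was in 4 of 12 windows of the cytosolic genes, in 2 of 3 windows of the mitochondrial chaperonin genes, in 1 of 5 windows of the Atf4 branch (Asns, where it overlaps the core in capitals above), in 0 of 16 ER windows and in 6.69% of all windows. Hspa1b carried it at the same place. The tail-to-tail pair TTCNNGAA was in both windows of Hsph1, in 2 of 3 windows of the mitochondrial genes and in 7.17% of all windows.

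**Figure D2:**
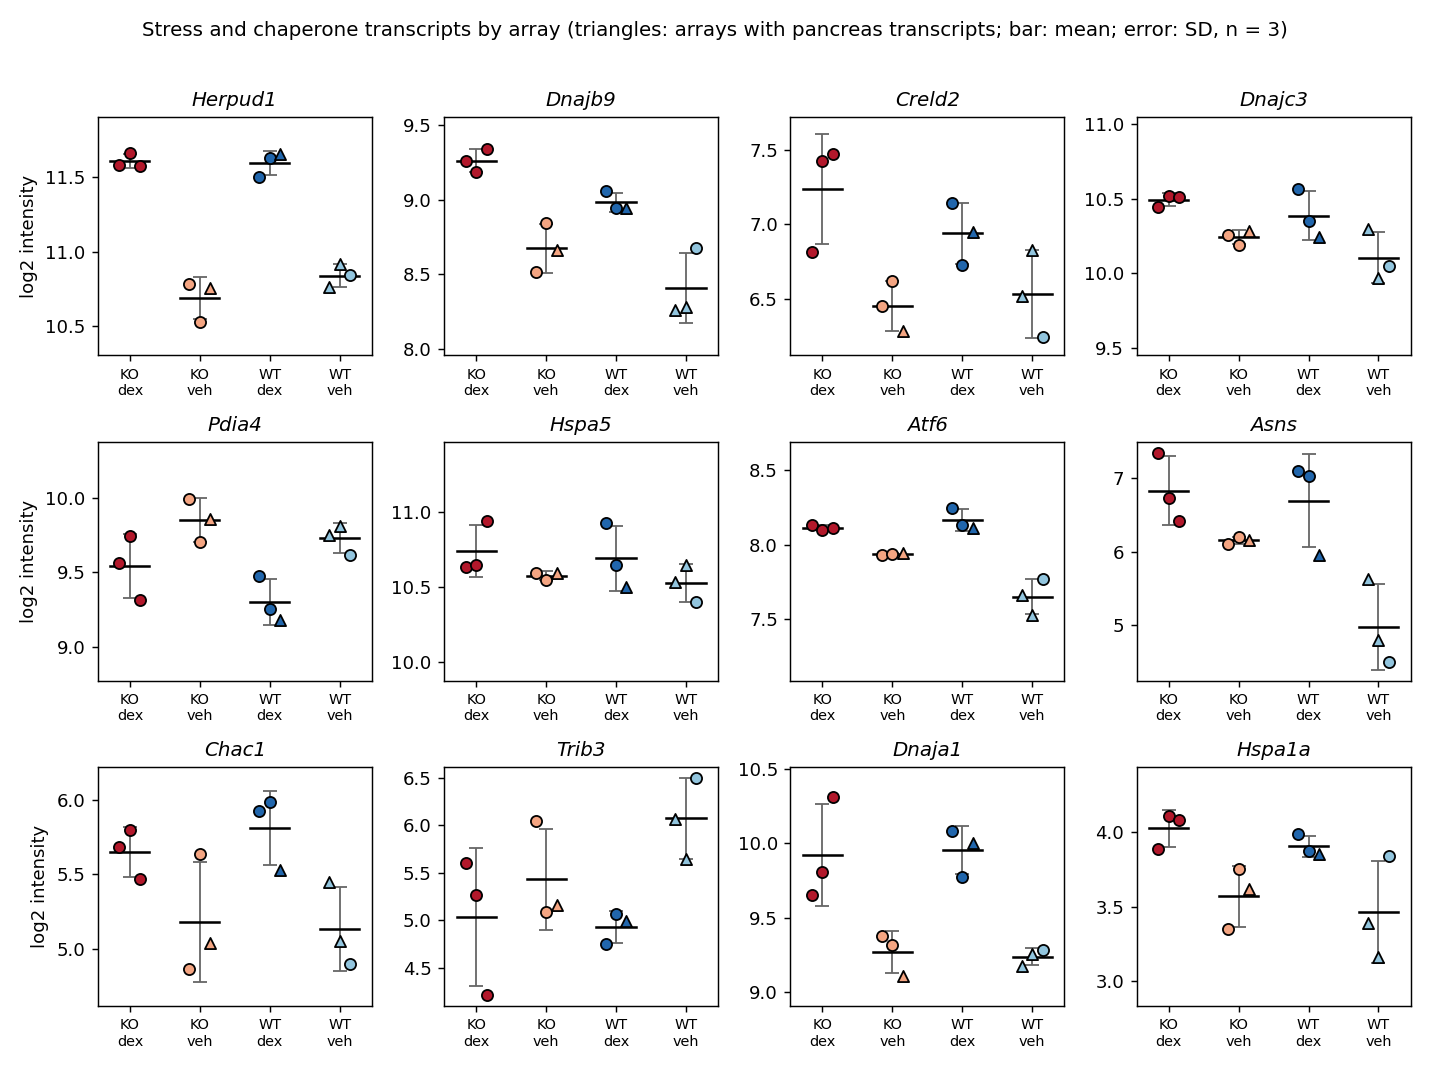
Log2 intensity (vertical axis, own scale per gene) of 12 members in each of the 12 arrays, by group; horizontal bars are means, error bars SD (n = 3), and triangles the 4 arrays with pancreas transcripts. Treated and vehicle arrays of Herpud1, Dnajb9, Dnaja1, Asns, Atf6 and Hspa1a are apart in both genotypes.

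The remaining cytosolic members did not pass in either genotype. Bag3, a co-chaperone of Hsp70 in selective autophagy, changed by 0.65 ± 0.21 in the knockout with groups apart (adjusted p = 0.0911) and by 0.10 ± 0.21 in wild type. Dnajb1, the main heat-inducible Hsp40, changed by 0.37 ± 0.13 in the knockout, also with groups apart (adjusted p = 0.126), and by 0.07 ± 0.13 in wild type. Neither Bag3 nor Dnajb1 differed in change between genotypes past the threshold, at 0.55 ± 0.30 for Bag3 (adjusted p = 0.829) and 0.30 ± 0.19 for Dnajb1 (adjusted p = 0.852), knockout minus wild type. Hsph1 (Hsp110), an exchange factor of Hsp70, had the widest scatter of this list, from 7.06 to 8.37 over the 12 arrays, and an averaged change of 0.33 ± 0.19. Its relative Hspa4 was at -0.03 ± 0.06 and the small heat shock protein Hspb1 at -0.14 ± 0.13, with -0.26 from its other probe set. The mitochondrial chaperonin genes Hspd1 (Hsp60) and Hspe1 (Hsp10), which share a promoter, were at 0.08 ± 0.06 and 0.11 ± 0.08. The other probe set gave 0.07 for Hspd1 and, with the opposite sign, -0.07 for Hspe1. Which locus each probe set of Hspd1, Hspe1, Hspb1 and Dnaja1 reads was not looked up here, so their values are uncertain as to the copy. Among the members, only windows of Hspd1 and Hspe1 held the triple heat shock element, GAA, TTC and GAA with 2 bases between each. Of all windows, 0.466% held it.

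Of the 19 ER members, 3 were higher and 0 lower in the knockout (15.8%, against 8.29% of all genes), and 3 were higher and 1 lower in wild type (21.1%, against 11.5%). Of the 7 measured cytosolic members, 1 was higher in each genotype and 0 were lower (14.3% in each). The median change in the knockout was 0.08 for the ER members, 0.40 for the cytosolic members and -0.01 for all genes tested. In wild type it was 0.00 for the ER members, 0.10 for the cytosolic members and 0.01 for all genes. Outside the members, 29 other cytosolic chaperones had a median of 0.05 in the knockout and -0.03 in wild type. For 13 subunits of the cytosolic chaperonin CCT it was 0.08 in the knockout and 0.12 in wild type. The cytosolic members' median in the knockout rests on Bag3, Dnaja1, Dnajb1, Hspa1a and Hsph1, which ranged from 0.37 to 0.66, with 1 of them past the threshold. Whether the lists differ in response was not tested. In whole liver, fewer cells of a type and less RNA per cell cannot be told apart.

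Loss of Hdac6 left the members without a call. Under dexamethasone 0 of 33 members passed between knockout and wild type, against 0.0279% of all genes, and under vehicle 0 of 33, against 0.101% of all genes. Averaged over treatments 0 of 33 passed, against 0.0503% of all genes, and 3 did at an unadjusted p under 0.05 (9.09%, against 10% of all genes), Asns, Dnajb9 and Hspa4. At an unadjusted p under 0.05 there were 2 members under dexamethasone (6.06%, against 8.75% of all genes), Hspa4 and Dnajb9, and 3 under vehicle (9.09%, against 7.19% of all genes), Asns, Atf6 and Dnajb9. Under vehicle, Asns was higher in the knockout by 1.18 ± 0.32 with groups apart (95% interval 0.48 to 1.88, adjusted p = 0.429, limma) and Atf6 by 0.29 ± 0.08, also with groups apart (adjusted p = 0.461). Both differences include wild-type vehicle 1 and 2 and knockout vehicle 3, which carried pancreas transcripts. Dnajb9 was 0.28 ± 0.12 higher under dexamethasone and 0.27 ± 0.12 higher under vehicle, and averaged 0.27 ± 0.09 (adjusted p = 0.313). Groups lay wholly apart for 3 members under dexamethasone (9.09%) and 3 under vehicle (9.09%), all higher in the knockout, against 6.9% and 5.8% of all genes higher in that way.

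The signs of the members' genotype differences leaned one way without single calls. Averaged over treatments, 26 of 33 members and 14 of 14 ER chaperones and folding enzymes were above 0 in knockout minus wild type, against 48.5% of all genes. Of 23 other ER folding genes, which were not among the members, 10 were above 0 (median -0.01). The differences of the 14 members were small, with a median of 0.09 and a range of 0.01 to 0.27. Members share arrays, so their signs are not separate observations. After quantile normalisation 13 of the 14 were above 0, as they were without the 4 arrays with pancreas transcripts. Kupffer cell markers leaned the same way, with 12 of 12 above 0 in the average (median 0.27) and under dexamethasone (median 0.71, 11 at an unadjusted p under 0.05), but 2 of 12 under vehicle (median -0.28), and 0 passed in any of these comparisons. Their part in the members' differences was not tested.

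**Figure D3:**
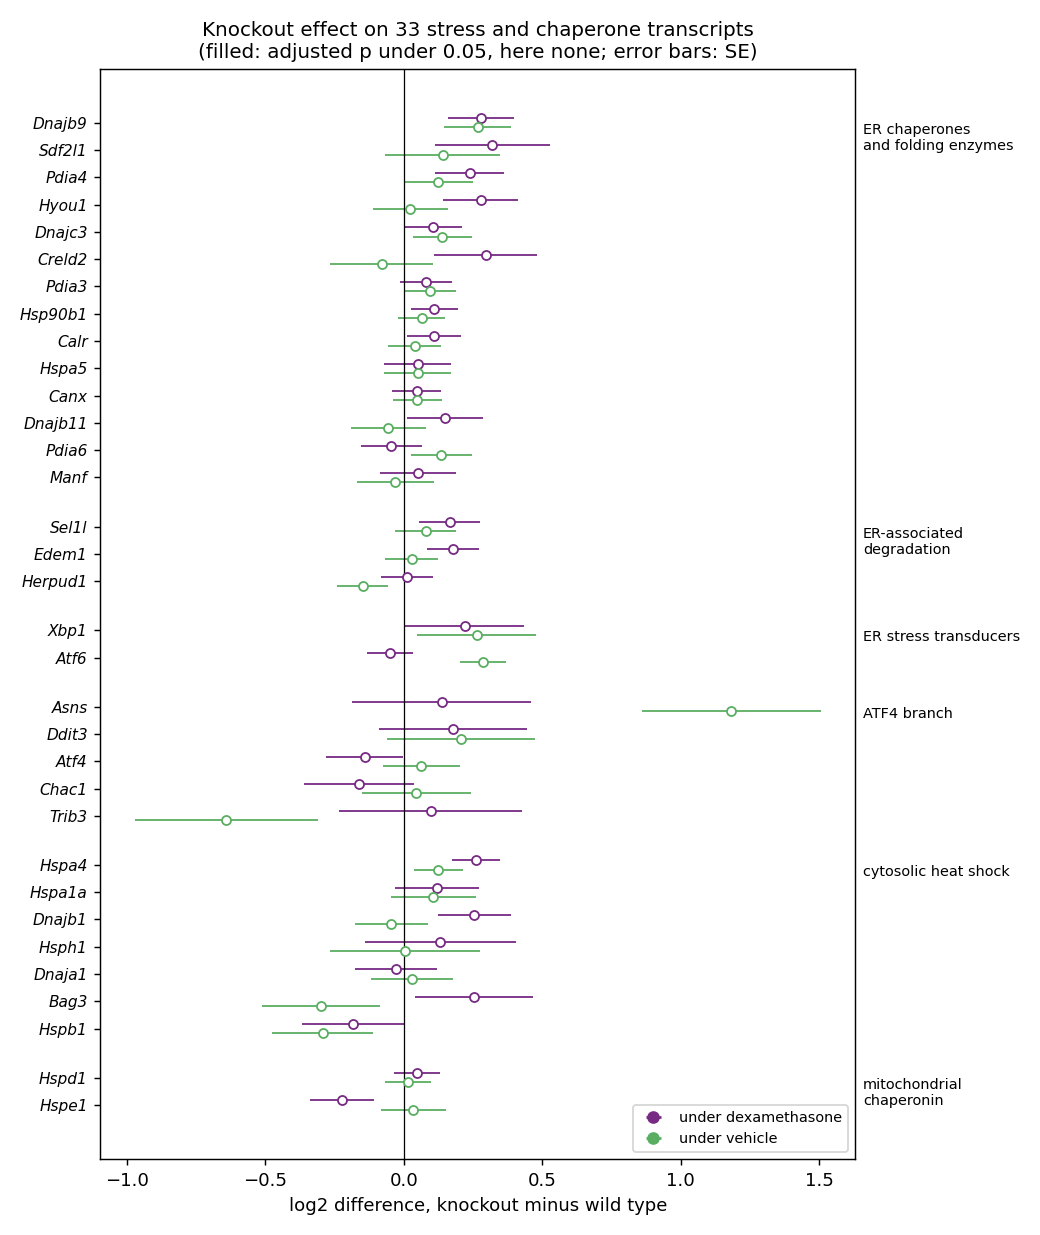
Log2 difference between knockout and wild type (horizontal axis) of 33 members under dexamethasone (purple) and under vehicle (green); bars are SE, and no point is filled because none had an adjusted p under 0.05. Most points lie right of 0, and Asns under vehicle, at 1.18, lies farthest from it.

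The dexamethasone change did not differ between genotypes past the threshold for any member: 0 of 33 passed for the interaction, as did 0% of all genes. At an unadjusted p under 0.05 there were Asns and Atf6 (6.06% of members, against 6.19% of all genes). The change in the knockout minus that in wild type was -1.05 ± 0.46 for Asns (95% interval -2.04 to -0.06, adjusted p = 0.789, limma) and -0.34 ± 0.12 for Atf6 (95% interval -0.59 to -0.08, adjusted p = 0.754). For both genes the treated groups of the genotypes overlapped and the vehicle groups did not. For Herpud1 and Dnajb9 the interaction was 0.16 ± 0.13 and 0.01 ± 0.17, with 95% intervals of -0.12 to 0.44 and -0.36 to 0.38. Calls in 1 genotype, such as those of Creld2, Chac1, Pdia4 and Trib3, are therefore not shown to be particular to it.

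Leaving out the arrays with pancreas transcripts moved the members' changes by -0.28 to 0.18 in the knockout and by -0.45 to 0.84 in wild type. Taken over all groups, the term for those 4 arrays had a median of -0.02 over the ER folding list (-0.16 to 0.07), 0.00 over the cytosolic list (-0.19 to 0.26) and -0.13 over the Atf4 branch (-0.41 to 0.17), against -0.00332 over all genes. Without the 4 arrays the knockout comparison, of 3 dexamethasone arrays and 2 vehicle arrays, called 3 members (Bag3, Dnajb9, Herpud1); Creld2 and Dnaja1 were lost and Bag3 was gained, while 5.84% of all genes were called. Without them the wild-type comparison, of 2 dexamethasone arrays and 1 vehicle array, called 2 members (Asns, Herpud1), and the share of all genes called was 3.12%. The lone wild-type vehicle array was assumed to vary like the other groups. All 12 calls made with all arrays, 4 in the knockout and 8 in wild type, kept their sign. Herpud1 was at 0.95 in the knockout and 0.72 in wild type, Asns at 2.57 in wild type, Atf6 at 0.42, Chac1 at 1.06, Dnajb9 at 0.32, Pdia4 at -0.25 and Trib3 at -1.59. Hspa1a was at 0.09 in wild type without these arrays, against 0.44 with them, and Hspa5 was at 0.39, against 0.17 with them.

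**Figure D4:**
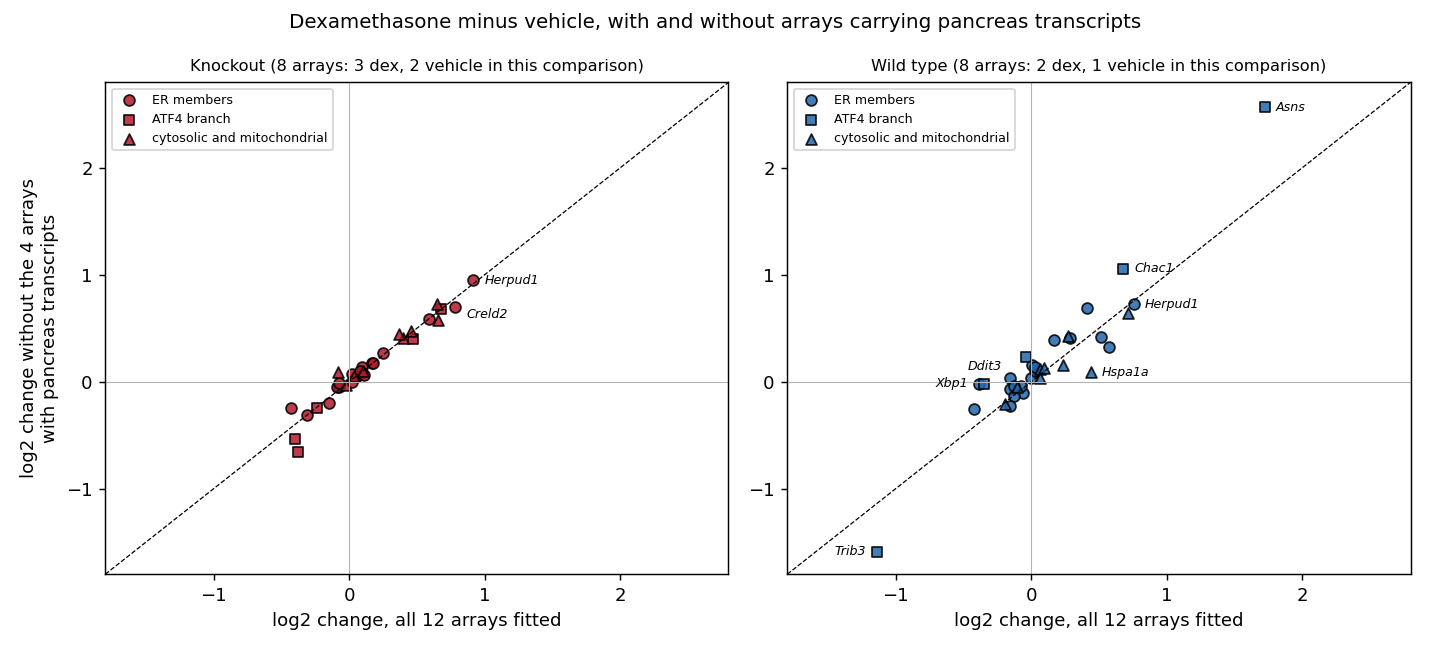
Log2 change with dexamethasone of 33 members from all 12 arrays (horizontal axis) and without the 4 arrays with pancreas transcripts (vertical axis), in knockout and wild type; the dashed line marks equal values. In wild type Asns, at 2.57 without these arrays and 1.73 with them, lies farthest above the line, and Trib3, at -1.59 without and -1.14 with them, farthest below.

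Single arrays carried part of the scatter. Wild-type dexamethasone 1 was the highest of its 3 arrays for 14 of 14 ER folding members and for 6 of 7 cytosolic members. Knockout dexamethasone 3 was the highest of its 3 for 5 of 7 cytosolic members, and for 11 of 13 subunits of the cytosolic chaperonin CCT, which was not among the members. It was the highest for 18 of 29 other cytosolic chaperones. For the 14 ER folding members it was the highest for 5, and knockout dexamethasone 2 for 8. Wild-type dexamethasone 1 was the highest for 16 of the 29 and 9 of the 13. The share over all genes is not given here. Hsph1 stood at 8.37 in knockout dexamethasone 3 and 8.07 in wild-type dexamethasone 1, against 7.06 to 7.61 in the other 10 arrays. What these arrays shared was not tested. Without both arrays, a choice made after seeing the data, 3 members were called in the knockout and 7 in wild type, and Creld2 and Chac1 were the calls lost. The share of all genes called was then 5.76% in the knockout and 8.94% in wild type.

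**Figure D5:**
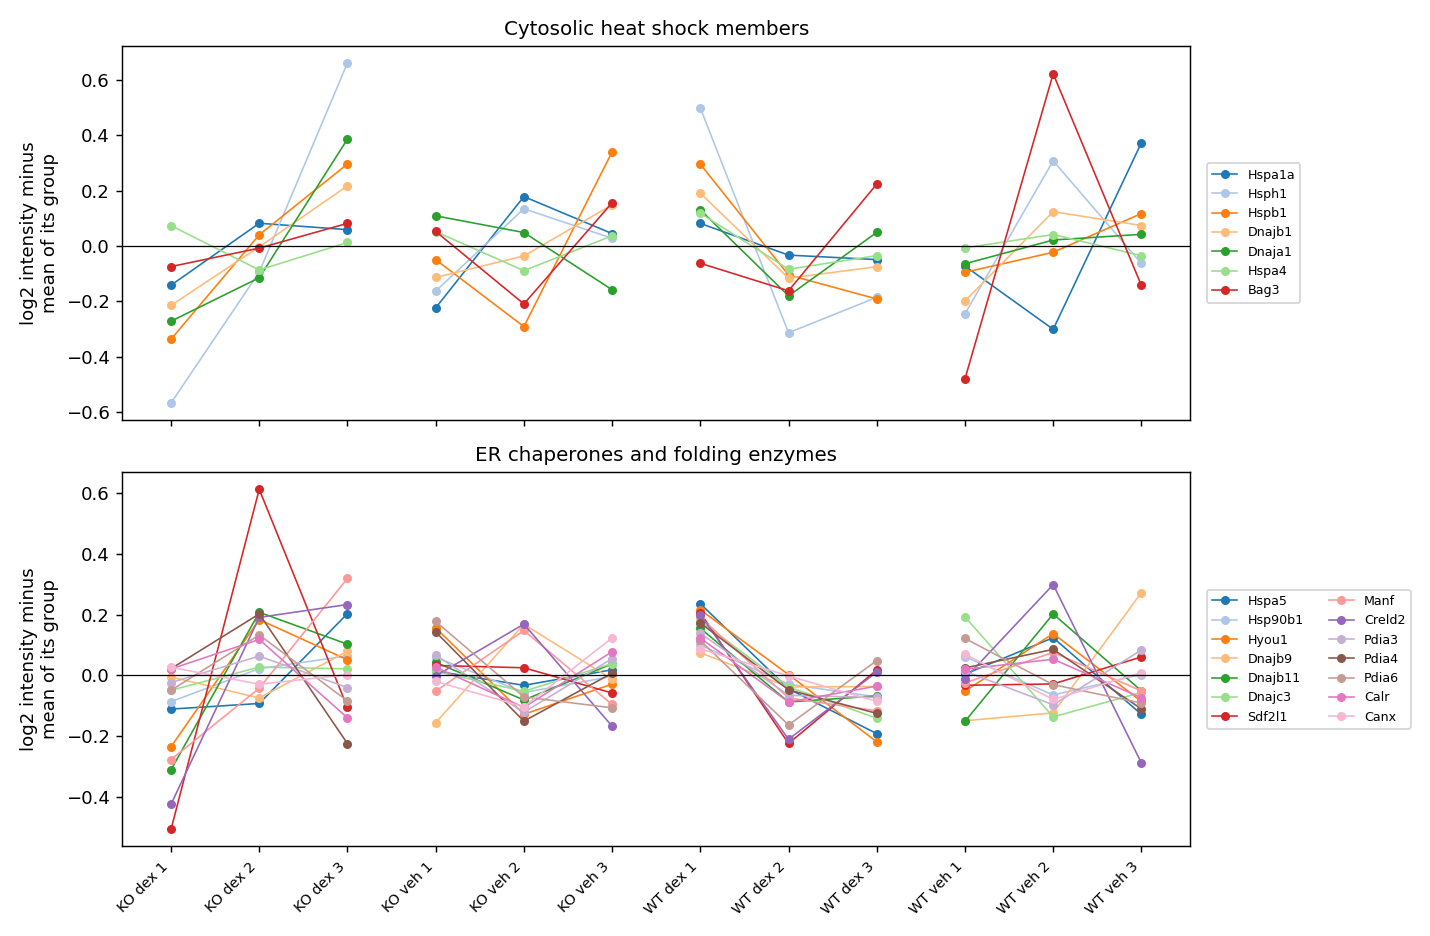
Log2 intensity minus the mean of the array's own group (vertical axis) for the 7 measured cytosolic members (top) and the 14 ER chaperones and folding enzymes (bottom) in the 12 arrays. Wild-type dexamethasone 1 is the highest of its group for 14 of 14 ER folding members, and knockout dexamethasone 3 for 5 of 7 cytosolic members.

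Wider lists of the same pathways held 140 more genes. After dexamethasone 9 were higher and 7 lower in the knockout (11.4%), and 10 were higher and 5 lower in wild type (10.7%), against 8.29% and 11.5% of all genes. Ern1, the Ire1 sensor, was lower in both genotypes, by -0.78 in the knockout and -0.95 in wild type. The ER-associated degradation list gave Ube2g2, a ubiquitin-conjugating enzyme, at 1.46 in the knockout and 1.39 in wild type, and Edem3, a mannosidase, at 0.47 in the knockout and 0.64 in wild type. Derl2, a channel component of the same pathway, was at -0.45 in the knockout, where it passed, and -0.37 in wild type, where it did not. In ER folding, Fkbp14, a prolyl isomerase, was higher (0.71 in the knockout, 0.76 in wild type) and the disulphide isomerase Pdia5 lower (-0.46 in the knockout, -0.62 in wild type), which is the direction of Pdia4. Among other Atf4 targets, Gpt2, an alanine aminotransferase, was at 1.10 in the knockout and 0.84 in wild type, and the mitochondrial folate enzyme Mthfd2 at 0.62 in the knockout and 0.71 in wild type, and these were the 2 of 22 that passed in each genotype. The heat shock factor Hsf2 was lower, at -0.71 in the knockout and -0.92 in wild type, the small heat shock protein Hspb8 was at 0.88 in the knockout and 0.40 in wild type and passed in the knockout, and Hspa2, an Hsp70, was at 0.93 in the knockout and 1.21 in wild type and passed in wild type. The mitochondrial Hsp40 Dnaja3 was higher in both (0.88 in the knockout, 0.84 in wild type), and Clpx (-0.89 in the knockout, -0.20 in wild type) and Grpel2 (-0.71 in the knockout, -0.37 in wild type) passed in the knockout. Ppp1r15a (Gadd34), which reverses the Perk signal, was at 0.12 in the knockout and 0.30 in wild type, and the translocation factor Sec62 at 0.25 in the knockout and 0.37 in wild type, and both passed in wild type. The amino acid sensor Eif2ak4 (Gcn2) was at 0.31 in the knockout, where it passed, and 0.09 in wild type. In comparisons of genotype and in the interaction 0 of the 140 passed.

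Markers of some other liver cells passed the test for the treatment. Of all genes, 8.29% passed in the knockout and 11.5% in wild type. Of 12 Kupffer cell markers, 0 passed in the knockout, where summed linear intensities were 1186 to 2026 with dexamethasone and 1385 to 1820 with vehicle, and 10 were lower in wild type, where the sums were 745 to 1036 with dexamethasone and 1543 to 2535 with vehicle. Of 9 liver endothelial markers, 1 was higher and 3 were lower in the knockout, and 1 was higher and 5 were lower in wild type. Of 8 stellate cell markers, 1 was lower in the knockout and 2 were lower in wild type. Of 6 plasma and B cell markers, 0 passed in the knockout and 3 were lower in wild type. Of 4 cholangiocyte markers, 0 passed in either genotype. Hepatocyte markers gave 1 of 10 past the threshold in the knockout and 0 in wild type. The part of these markers in the members' changes was not tested.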

How the data were processed

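The authors deposited log2 intensities of 12 Affymetrix arrays. The submitters' processing notes name R 2.10.0 and affy. Background correction and normalisation are not given in the sources used here. The 34760 probe sets ranged from 0.927 to 13.5, and the sorted values of the arrays differed by at most 0.215 from their mean, so arrays are on one scale. Precision is limited by the number of arrays. The 21640 probe sets with 1 symbol covered 19937 genes, and 1321 had several symbols and 11799 none. Genes above the 20th percentile in 3 or more arrays were tested.

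Groups came from the titles and were fitted together with limma 3.58.1 in R 4.3.3, with empirical Bayes moderation (8 residual and 5.07 prior degrees of freedom). The 7 comparisons were dexamethasone in each genotype, genotype under each treatment, their interaction and both averages, with p-values adjusted by the Benjamini-Hochberg method over 17904 genes. Errors are SE for changes. The fit was tested on simulated data. The members, the lists and the tests were chosen with earlier results of these data known. Members called, and Hspa5, Hspa1a, Xbp1, Atf4 and Ddit3, were given by array, and up to 3 genes of each wider list by smallest p. Alternatives were other filters, quantile normalisation, median centring, all one-symbol probe sets, all probe sets, array weights, a replicate block, fits on 6 arrays, a term for or omission of the arrays with pancreas transcripts, and omission of single arrays. Promoter windows were taken from RefSeq (GRCm38.p6) and searched in Python 3.11.15.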

Additional observations from a re-analysis of the deposited data

How the results depend on the processing

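With no filter, quantile normalisation, a 50th percentile filter, median centring, every one-symbol probe set, or only the 6 arrays of the comparison, the members called stayed at 4 in the knockout, 8 in wild type and, where it could be fitted, 11 in the average. Array weights gave 5, 7 and 11. A fit over all probe sets, with or without a symbol, chosen after seeing the data, gave 3, 5 and 10, without Creld2 in the knockout, Chac1, Pdia4 and Trib3 in wild type and Trib3 in the average; 5.59%, 8.01% and 13.7% of all genes were then called. The second probe set of Dnaja1 did not pass in the knockout (0.66) and that of Pdia4 in no comparison. No value changed sign past the threshold under any alternative run. The replicate numbers were not taken to pair the samples. Of 18 pairs of arrays with the same number, 3 deviated together with a correlation over 0.1 (-0.54 to 0.36). Of 36 pairs with other numbers, 11 did (-0.35 to 0.40). With 3 arrays per group these correlations cannot exclude a pairing. With the replicate block the counts were again 4, 8 and 11.

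Without the 4 arrays with pancreas transcripts, 3 members were called in the knockout, 2 in wild type and 9 in the average; the wild-type comparison then had 1 vehicle array. A term for these arrays gave 4, 6 and 10. Leaving out single arrays gave 2 to 5 calls in the knockout, with 2 without knockout vehicle 3, and 5 to 8 in wild type, with 5 without wild-type dexamethasone 2 and 5 without knockout vehicle 3; the average gave 9 to 11. Comparisons of genotype and the interaction gave 0 calls throughout these omissions. Herpud1, Dnajb9, Asns and Atf6 kept every call when single arrays were left out. Dnaja1 in the knockout was lost once (0.58), Creld2 in the knockout 4 times (0.67 to 0.78), Chac1 7 times (0.56 to 0.68), Pdia4 6 times (-0.42 to -0.36) and Trib3 7 times (-1.21 to -0.93) in wild type, and Dnajc3 6 times in the average (0.22 to 0.26). Without knockout dexamethasone 3 and wild-type dexamethasone 1, chosen after seeing the data, the counts were 3, 7 and 9. Of all genes, 5.76%, 8.94% and 13.6% were then called. Apart from the loss of arrays, the cause was not tested.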
